A study of Mus musculus with 6 samples.

Results

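The T cell costimulatory and checkpoint ligands described here are 6 genes, Cd80, Cd86, Cd40, Cd274, Pdcd1lg2 and Icosl, taken by symbol from the 41388 Ensembl genes of the deposited count tables. Each of the 6 matched 1 Ensembl ID, and all 6 had enough reads to be tested. The libraries came from 2 populations of macrophages of the aortic intima, sorted from C57BL/6 mice lacking Apoe (ApoE -/-), a strain that develops atherosclerotic plaques, after 28 weeks on the diet that the design text abbreviates as WD. Live cells positive for CD64 and CD11b were split by side scatter and by BODIPY, a dye of neutral lipid: those high for both are the foamy and those low for both the non-foamy population. Each gave 3 libraries with 15628627 to 24619075 counts in genes. The Apoe deletion and the diet were shared by both populations, no wild-type library was analysed here, and neither the age of the animals nor the division of the 6 mice among libraries is stated, so each p-value speaks of the scatter among these 6 libraries, part of which may be technical. Values of a population are listed below in the order of its replicates 1 to 3.

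A naive T cell that recognises peptide on an antigen-presenting cell needs a second signal from that cell to become fully activated. CD80 and CD86, the B7 ligands, deliver it through CD28 and are also bound by the inhibitory receptor CTLA-4; ICOS ligand, encoded by Icosl, engages ICOS on activated T cells. CD40 works in the other direction: it is a receptor of the TNF receptor superfamily on the presenting cell, is triggered by CD40 ligand on helper T cells, and signals through TRAF adaptors to NF-kB. PD-L1 (Cd274) and PD-L2 (Pdcd1lg2) bind PD-1 on T cells and restrain them. Plaques hold T cells beside macrophages, so these molecules are part of how the cell types meet there.

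The 6 genes lie on 4 chromosomes, all as protein-coding genes, and the counts cover the exons of each gene together. On GRCm38, in the coordinates of the deposited tables, Cd86 (ENSMUSG00000022901) lies on chromosome 16 from 36603869 to 36666081 and Cd80 (ENSMUSG00000075122) on the same chromosome from 38458933 to 38486933. Cd40 (ENSMUSG00000017652) lies on chromosome 2 from 165055627 to 165072948 and Icosl (ENSMUSG00000000732) on chromosome 10 from 78069360 to 78079525. The PD-1 ligand genes are neighbours on chromosome 19, with Cd274 (ENSMUSG00000016496) from 29367455 to 29388095 and Pdcd1lg2 (ENSMUSG00000016498) from 29410919 to 29471157. No other listed gene overlaps the span of any of the 6.

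The bases upstream of the start site are shown for Icosl, which was lower in foamy libraries, Cd80, which was lower in every foamy library without passing the test, and Cd274, which overlapped between the groups. Cd86 and Cd40 had no entry in the set of RefSeq (GRCm38.p6) windows used here, which is a limit of that set. It held a window for 4 of the 6 genes: Cd80, Cd274, Pdcd1lg2 and Icosl. Each is the 250 bases before a RefSeq start, on the plus strand, 5′ to 3′, and capitals mark a motif match:
Icosl, chr10:78069118-78069367: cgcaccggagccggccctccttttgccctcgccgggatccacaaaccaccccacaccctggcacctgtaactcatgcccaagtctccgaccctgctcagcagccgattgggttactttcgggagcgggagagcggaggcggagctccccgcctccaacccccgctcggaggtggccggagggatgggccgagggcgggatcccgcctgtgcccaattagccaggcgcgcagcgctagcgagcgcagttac
Cd80, chr16:38458683-38458932: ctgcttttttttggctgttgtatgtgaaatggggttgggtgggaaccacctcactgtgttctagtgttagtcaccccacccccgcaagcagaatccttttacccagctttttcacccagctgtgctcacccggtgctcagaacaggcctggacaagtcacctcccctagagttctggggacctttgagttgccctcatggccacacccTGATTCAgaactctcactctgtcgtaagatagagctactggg
Cd274, chr19:29367188-29367437: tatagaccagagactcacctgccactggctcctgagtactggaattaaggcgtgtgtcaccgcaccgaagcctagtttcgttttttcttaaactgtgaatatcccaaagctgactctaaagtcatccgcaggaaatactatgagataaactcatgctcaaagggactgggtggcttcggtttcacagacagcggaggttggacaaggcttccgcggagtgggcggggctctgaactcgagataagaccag
The patterns searched, on both strands, were 4: the AP-1 motif TGANTCA, the GAS motif TTCNNNGAA of STAT factors, and, by name, the IRF element and the NF-kB consensus. The Cd80 window held 1 AP-1 match, TGATTCA, from 42 to 36 bases before the start, and AP-1 matches stood in 6.75% of all 32851 RefSeq windows of this length. The Pdcd1lg2 window, not printed, held 1 NF-kB match, GGGGAATCCC, from 244 to 235 bases before the start, against 3.9% of all windows. The windows of Icosl and Cd274 held none of the 4, of which GAS stood in 7.02% and IRF in 2.98% of all windows. The Icosl window was 68.8% G and C, the Cd80 window 52.8% and the Cd274 window 50.4%, against a median of 52.4%. In the deposited coordinates the Icosl window runs past the start of Icosl at 78069360. The Cd274 window overlaps the span of Plgrkt, a gene on the opposite strand that reaches to 29367390.

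Among the T cell ligands, foamy macrophages had less RNA of Cd86 and Icosl (5.20-fold and 4.99-fold below non-foamy macrophages), while Cd40 and Cd274 overlapped between the populations and Pdcd1lg2 was close to the limit of detection in both. Cd80 was lower in every foamy library but did not pass the test. Of the 6 genes, 2 fell and 0 rose at an edgeR adjusted p of 0.05, against a background of 2.9% of 11303 tested genes lower and 2.5% higher, or 5.41% in either direction. None of the 6 was higher at an unadjusted p of 0.05, by DESeq2 or by limma-voom either. On the log2 scale, foamy over non-foamy, the median change of the 6 was -1.23, and that of all tested genes -0.04. In these sorted populations, fewer cells carrying an RNA and less of it per cell cannot be told apart. Monocyte markers (8 of 11 tested) and immediate early and heat shock genes (13 of 17) fell in the same foamy libraries, with Nr4a1 counted in both. The part of either list in the ligand values was not tested.

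Cd86, the B7 ligand that antigen-presenting cells carry before activation, was the most abundant of the 6. Its level was 125, 77.6 and 101 CPM (TMM-normalized count per 1e+06 reads) in the foamy libraries and 486, 555 and 537 CPM in the non-foamy libraries. The groups were far apart: the lowest non-foamy library stood 3.89-fold above the highest foamy library. The means were 101 ± 23.7 (SD, n = 3) against 526 ± 35.5 CPM, 5.20-fold lower in foamy libraries, with a log2 fold change of -2.38 (SE 0.21, 95% interval -2.84 to -1.92, edgeR adjusted p = 0.00010).

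Icosl, the ICOS ligand gene, showed a change of like size at a lower level. It measured 11.3, 5.4 and 13.9 CPM in the foamy libraries and 48.2, 51.9 and 52.8 CPM in the non-foamy libraries. The non-foamy libraries lay close together, and foamy replicate 2 was the lowest of all 6. Means were 10.2 ± 4.34 and 50.96 ± 2.47 CPM, 4.99-fold lower in foamy libraries (log2 fold change -2.32 with an SE of 0.35, 95% interval -3.09 to -1.55, adjusted p = 0.0032 by edgeR).

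Cd80, the B7 ligand induced on activation, had few reads: 34, 6 and 58 counts in the foamy libraries and 196, 104 and 166 counts in the non-foamy libraries. In CPM these were 1.61, 0.33 and 3.13 against 10.6, 5.72 and 6.53. Cd80, Cd86 and Icosl were thus the 3 of the 6 genes whose groups did not overlap, as in 25.7% of all tested genes, or 13.3% with foamy lower. Within the foamy population Cd80 was uneven, with replicate 2 far below replicate 3. Foamy libraries averaged 1.69 ± 1.4 CPM, against 7.62 ± 2.62 CPM in non-foamy ones. Its log2 fold change of -2.17 (SE 0.77, 95% interval -3.86 to -0.47) was close in size to that of Icosl (-2.32) but did not pass edgeR's test (unadjusted p = 0.017, adjusted p = 0.15). DESeq2, which called 5.81% of its tested genes lower, also called Cd80 lower (log2 fold change -2.15, adjusted p = 0.027).

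**Figure D1:**
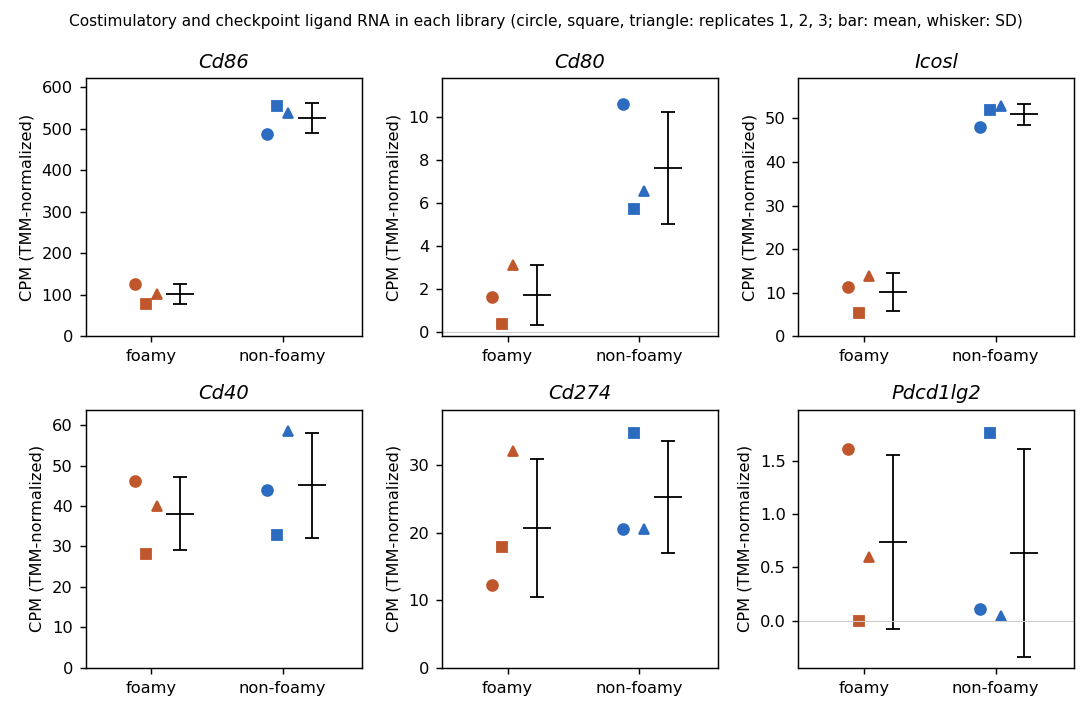
Levels of the 6 ligand genes in CPM (TMM-normalized) in each of 3 foamy and 3 non-foamy libraries, each panel with its own axis; symbols are replicates, bars the mean and whiskers the SD. Cd86, Cd80 and Icosl are lower in all 3 foamy libraries, whereas Cd40, Cd274 and Pdcd1lg2 overlap between the groups.

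Cd40, the receptor for CD40 ligand, overlapped between the populations. It measured 46.2, 28.2 and 39.9 CPM in the foamy libraries and 43.9, 32.7 and 58.6 CPM in the non-foamy libraries. The lowest library was foamy replicate 2 and the highest non-foamy replicate 3. Means were 38.1 ± 9.10 and 45.1 ± 12.97 CPM (log2 fold change -0.24 with an SE of 0.29, adjusted p = 0.74 by edgeR), with a 95% interval of -0.88 to 0.40. That interval reaches down to a level 1.84-fold lower in foamy libraries, so it holds falls of up to that size and not one as large as that of Cd86.

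Cd274, which encodes PD-L1, varied within each population by more than between them. It measured 12.2, 17.8 and 32.1 CPM in the foamy libraries and 20.5, 34.8 and 20.5 CPM in the non-foamy libraries. One library in each group, foamy replicate 3 and non-foamy replicate 2, stood above the rest. The means of 20.7 ± 10.3 and 25.3 ± 8.23 CPM gave a log2 fold change of -0.29 (SE 0.39, 95% interval -1.15 to 0.57, edgeR adjusted p = 0.78).

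Pdcd1lg2, which encodes PD-L2, had 34, 0 and 11 counts in the foamy libraries and 2, 32 and 1 counts in the non-foamy libraries. Most of its reads came from 1 library in each population, foamy replicate 1 and non-foamy replicate 2. For foamy replicate 2, 0 counts allow a level of up to 0.167 CPM, taking 3 counts as the limit. With means of 0.74 ± 0.82 and 0.64 ± 0.97 CPM, no difference was detectable at this depth (log2 fold change 0.23 with an SE of 1.58, 95% interval -3.24 to 3.69, adjusted p = 0.97 by edgeR).

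Compared per kilobase of exon, as RPKM (the same CPM divided by the exon length in kilobases), Cd86 led in both populations, with 27.6 ± 6.48 RPKM in foamy and 144 ± 9.69 RPKM in non-foamy libraries. In foamy libraries Cd40 came next at 11.2 ± 2.67 RPKM, followed by Cd274 (5.72 ± 2.83), Icosl (3.70 ± 1.58), Cd80 (0.99 ± 0.82) and Pdcd1lg2 (0.45 ± 0.50). In non-foamy libraries Icosl came second at 18.5 ± 0.90 RPKM, ahead of Cd40 (13.2 ± 3.81), Cd274 (6.98 ± 2.27), Cd80 (4.48 ± 1.54) and Pdcd1lg2 (0.39 ± 0.59). Neighbours whose ranges overlapped were Cd40 with Cd274, Cd274 with Icosl and Cd80 with Pdcd1lg2 in foamy libraries, and Cd274 with Cd80 in non-foamy libraries. Icosl thus stood above Cd40 in all 3 non-foamy libraries and ranked below it in the foamy mean.

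The make-up of the ligand RNA differed with it. As a share of the summed RPKM of the 6 genes, Cd86 was 59.8, 57.9 and 49.8% in the foamy libraries and 75.8, 78.1 and 76.1% in the non-foamy libraries. Cd40 was 23.7, 22.7 and 21.1% in foamy and 7.36, 4.96 and 8.94% in non-foamy libraries. Cd274 spanned 5.90 to 15.99% in foamy but 2.95 to 4.95% in non-foamy libraries. Icosl was 7.21, 5.36 and 9.08% in foamy but 9.98, 9.71 and 9.96% in non-foamy libraries. These 4 shares did not overlap between the groups; they are given as a description, with no test, because a share of 1 gene moves when another changes.

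Ratios of reads per kilobase within a library, which do not depend on scaling between libraries, were compared for 4 pairs by a two-sided exact permutation test, with 0.10 the smallest p that 3 libraries against 3 allow. The Cd86 to Cd274 ratio was 10.1, 4.30 and 3.11 in the foamy libraries and 23.4, 15.8 and 25.8 in the non-foamy libraries. Every foamy ratio of this pair was below every non-foamy one, and the mean log2 ratio was 2.36 ± 0.88 against 4.41 ± 0.38 (difference -2.05, exact p = 0.10, 0.40 after Benjamini-Hochberg adjustment over the 4 pairs). The Cd86 to Cd80 log2 ratio was 5.23 ± 1.37 in foamy and 5.05 ± 0.57 in non-foamy libraries (n = 3 each, exact p = 1). For Cd274 to Pdcd1lg2 the log2 ratios were 4.83 ± 3.22 and 5.52 ± 2.14 (n = 3 each, exact p = 0.80), with Pdcd1lg2 at 0 to 34 counts in a library. Cd40 to Cd274 had log2 ratios of 1.1 ± 0.84 and 0.93 ± 0.83 (n = 3 each, exact p = 1). The adjusted p of each of these 3 pairs was 1, and no pair could pass 0.05 in this design.

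**Figure D2:**
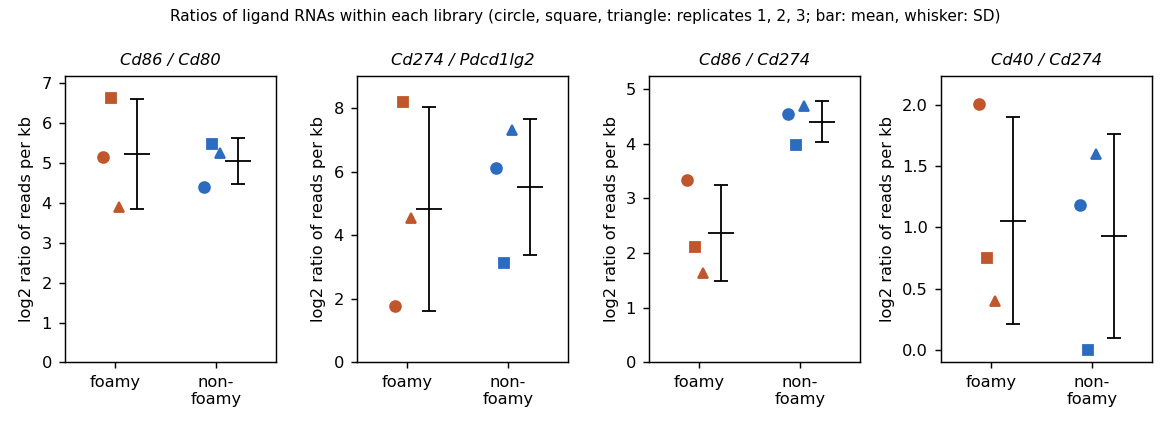
The log2 ratio of reads per kilobase of 4 pairs of ligand genes within each library; symbols are replicates, bars the mean and whiskers the SD. The ratio of Cd86 to Cd274 is lower in all 3 foamy libraries, with means of 2.36 against 4.41, and the other 3 pairs overlap.

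Beside the 6, a list of 23 other costimulatory and checkpoint ligands was described, of which 11 had enough reads to be tested. In this list 2 genes fell and 1 rose in foamy libraries, with a median log2 fold change of 0.29 against -0.04 over all tested genes, where 2.9% fell and 2.5% rose. At an unadjusted p of 0.05, 2 were lower and 3 higher; limma-voom called 2 lower and 2 higher, and DESeq2, which tested more genes, 5 lower and 2 higher. Tnfsf9, which encodes 4-1BB ligand, measured 75.9, 51.7 and 47.7 CPM in the foamy libraries and 1150, 1001 and 953 CPM in the non-foamy libraries (log2 fold change -4.15 with an SE of 0.23, adjusted p = 9.0e-06 by edgeR). Pvr, the poliovirus receptor that binds DNAM-1 and TIGIT on lymphocytes, measured 5.22, 10.5 and 7.82 against 46.7, 19.98 and 20.8 CPM, and the edgeR fit gave -1.90 on the log2 scale (SE 0.43, adjusted p = 0.028). Non-foamy replicate 1 was the highest for both genes. Pvr was called in 9 of 15 alternatives and no longer passed, among others, without any 1 of the foamy replicates (-2.15 to -1.66) or without non-foamy replicate 1 (log2 fold change -1.38).

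In the opposite direction, Cd276, the B7 family member B7-H3, measured 14.4, 16.7 and 20.2 CPM in foamy and 4.28, 2.20 and 3.78 CPM in the non-foamy libraries (log2 fold change 2.32 with an SE of 0.44, adjusted p = 0.011 by edgeR). Leaving out foamy replicate 3 ended the Cd276 call (log2 fold change 2.19). A further 2 genes, named after their values were seen, were higher in all 3 foamy libraries without passing the test: Cd200, the ligand of an inhibitory myeloid receptor, at 91.9 ± 11.8 against 31.0 ± 28.0 CPM (log2 fold change 1.57, edgeR adjusted p = 0.10), and Vsir, which encodes VISTA, at 158 ± 27.1 against 112 ± 14.9 CPM (edgeR adjusted p = 0.21). Cd200 was called higher in 5 of 15 alternatives, DESeq2 and limma-voom among them, and its log2 fold change was 2.62 without non-foamy replicate 1 (edgeR adjusted p = 0.00090). Vsir was called in 0 of 15. Of the 11 tested genes of the list, 3 were higher and 2 lower in foamy libraries without overlap. Over all tested genes 25.7% did not overlap, 13.3% with foamy lower. The most abundant genes of the list that did not pass, Cd48 and Lgals9, overlapped between the groups, at 692 ± 46.7 against 568 ± 226 CPM and 431 ± 48.5 against 317 ± 90.9 CPM. Of the called ligands, Cd86, Icosl and Tnfsf9 were thus lower under all 15 alternatives, while the calls of Pvr and Cd276 were lost under some.

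**Figure D3:**
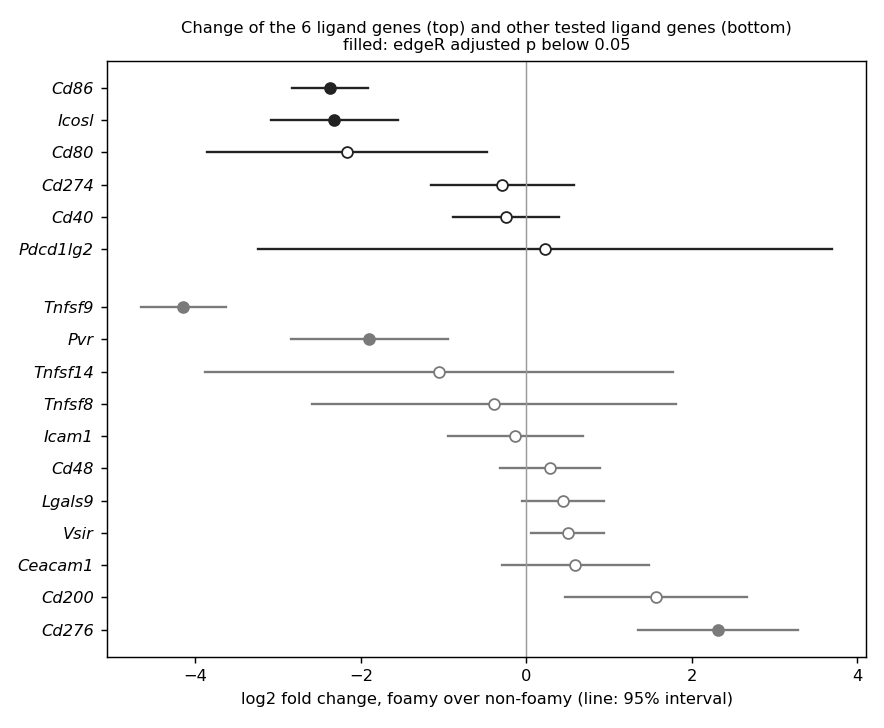
The log2 fold change, foamy over non-foamy, of the 6 ligand genes (top) and of the 11 tested genes among 23 other ligands (bottom), with 95% intervals; filled points passed an edgeR adjusted p of 0.05. Cd86, Icosl, Tnfsf9 and Pvr lie left of 0 and Cd276 right of it among filled points, and the interval of Pdcd1lg2 runs from -3.24 to 3.69.

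Downstream of CD40, 14 genes of TRAF and NF-kB signalling were all tested: 4 fell and 0 rose, where 2.9% of all tested genes fell and 2.5% rose. The median log2 fold change of the 14 was -0.97, against -0.04 over all tested genes. None of the 14 was higher at an unadjusted p of 0.05, by DESeq2 or by limma-voom. Rel, the NF-kB subunit c-Rel, measured 16.2, 12.0 and 8.31 CPM in foamy and 98.8, 66.4 and 36.7 CPM in the non-foamy libraries (log2 fold change -2.47 with an SE of 0.39, adjusted p = 0.0040 by edgeR). Birc3 and Birc2, ubiquitin ligases bound to TRAF proteins, had log2 fold changes of -1.68 and -1.86, and Tnfaip3, the NF-kB inhibitor A20, of -1.16. Birc2 no longer passed with either of the first 2 foamy replicates or non-foamy replicate 3 left out (-1.78 to -1.65), nor did Tnfaip3 without non-foamy replicate 3 or any 1 foamy replicate (-1.30 to -0.93). The most abundant members that did not pass were Nfkb1 (19.2 ± 10.5 against 42.6 ± 7.99 CPM) and Rela (26.8 ± 4.69 against 29.6 ± 1.14 CPM). Thus Cd40 itself overlapped between the populations while Rel, Birc2, Birc3 and Tnfaip3 were lower in the same foamy libraries. A link of these genes to CD40 was not tested.

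PD-1 ligand RNA is induced by interferon gamma and, for PD-L2, by interleukin-4 and GM-CSF. A list of 15 genes held the receptors of these cytokines, their JAK, STAT and IRF mediators, Socs1 and the PD-L1 stabilisers Cmtm6 and Cmtm4. All but Socs1 were tested (14 genes), and 0 passed the edgeR test in either direction. At an unadjusted p of 0.05, 4 were lower (Ifngr1, Irf1, Irf2 and Il4ra) and 2 higher (Csf2ra and Csf2rb). DESeq2 called 1 higher and 0 lower, and limma-voom 0. The median log2 fold change of the 14 was -0.24, against -0.04 over all tested genes. Groups did not overlap for the 4 lower and 2 higher genes named, where 25.7% of all tested genes did not overlap. The most abundant, the interferon gamma receptor genes Ifngr1 and Ifngr2, stood at 215 ± 16.5 against 283 ± 7.16 CPM and 139 ± 12.5 against 149.7 ± 30.1 CPM.

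Around the PD-1 ligand genes, the span of Plgrkt, on the opposite strand, stops 64 bases short of Cd274, and 22823 bases separate Cd274 from Pdcd1lg2 with no listed gene starting between them. Plgrkt, a plasminogen receptor gene, was higher in all 3 foamy libraries without passing the test, at 94.7 ± 9.15 against 60.9 ± 21.5 CPM, and the fit gave a log2 fold change of 0.64 (SE 0.27, edgeR adjusted p = 0.24). The next gene beyond Pdcd1lg2, A930007I19Rik, overlapped between the groups at 4.42 ± 0.66 against 7.02 ± 1.78 CPM.

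Of the 5 T cell receptors for these ligands, Cd28 alone had enough reads to be tested. Cd28, the receptor of CD80 and CD86, had 278, 360 and 235 counts in the foamy libraries and 60, 69 and 4 counts in the non-foamy libraries. Its level did not overlap between the groups, at 15.3 ± 4.12 against 2.40 ± 1.96 CPM, but it did not pass the edgeR test (log2 fold change 2.68, SE 0.82, adjusted p = 0.090). It was called higher by DESeq2, by limma-voom, with no filter on low counts and without non-foamy replicate 3. Genes of the CD3 complex and the T cell receptor chains (7 genes) served as T cell markers. They gave 13, 4 and 1 counts in all in the foamy libraries, so foamy libraries had Cd28 reads with these genes near 0. In the non-foamy libraries they gave 3, 2 and 140 counts, 89 of the 140 from Cd247. Trbc1 and Trbc2 were at 0 in every library, so these sums rest on the other genes. Ctla4, Icos and Cd40lg had at most 3 counts in every library. Pdcd1, which encodes PD-1, had 58 counts in non-foamy replicate 1 and at most 2 in each other library.

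**Figure D4:**
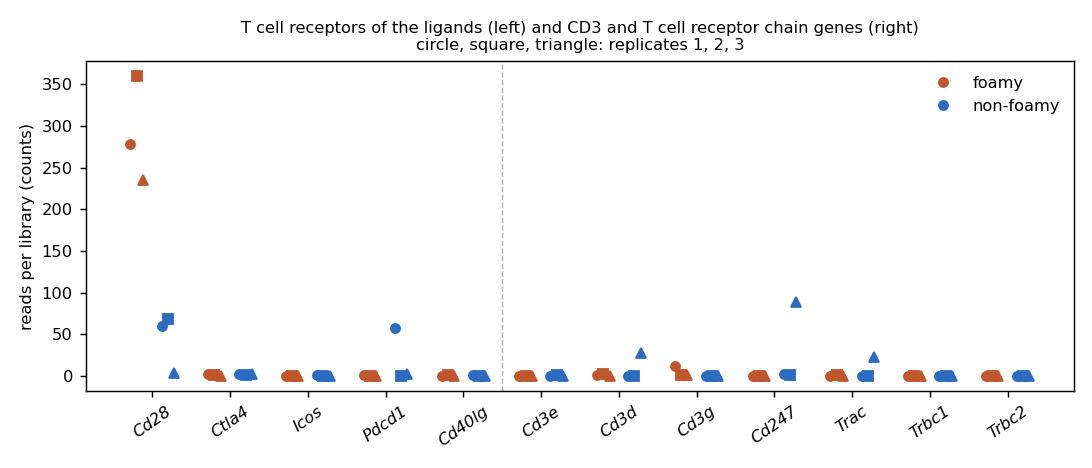
Reads per library of the 5 genes for T cell binding partners, of which Cd40lg encodes a ligand (left), and of 7 CD3 and T cell receptor chain genes (right), with symbols for replicates. Cd28 has 235 to 360 reads in foamy libraries, where each gene at the right has at most 12.

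By the correlation of log2 CPM over the 6 libraries, which fall into 2 groups, the tested genes closest to Cd86 were Ptgs1 (Pearson r = 0.999), Ighm (0.997) and Myef2 (0.996), and those closest to Icosl were Lrrk1 (0.995), Mir155hg (0.994) and Cdhr3 (0.994). Closest to Cd80 were Bub3 (0.9999), Nrip1 (0.997) and Dennd2c (0.99). Cd40 was closest to Taf4, 8430429K09Rik and Yju2 (0.979 to 0.988), Cd274 to Nudt18, Agps and Brwd3 (0.975 to 0.986), and Pdcd1lg2 to AW146154, Ranbp6 and Copb1 (0.97 to 0.98). Among the 6 genes themselves, r was 0.9755 for Cd86 with Icosl, 0.94 for Cd80 with Icosl and 0.856 for Cd80 with Cd86, and Cd40 with Cd274 gave -0.27. These values share libraries and are picked from over 11303 genes, so they are descriptions only.

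The sort genes were measured in all 6 libraries. Fcgr1 (CD64) stood at 232 ± 44.8 and 182 ± 52.9 CPM, and Itgam (CD11b) at 77.8 ± 7.82 and 142 ± 13.2 CPM, in foamy and non-foamy libraries. All 10 macrophage markers were tested: Lyz2, Cd68 and Mertk were higher, Csf1r, Adgre1 and Itgam lower, and C1qb, C1qc, C1qa and Fcgr1 did not pass. The calls of Adgre1 and Itgam held in 9 and 7 of 15 alternatives and were lost without any 1 foamy replicate. Apoe had 4.96 ± 1.78 and 4.45 ± 1.66 CPM in foamy and non-foamy libraries. Among markers of other cells, most of the tested monocyte markers moved with Cd86 and Icosl. Of 11 tested monocyte markers 8 fell (Plac8, Cx3cr1, Nr4a1, Ccr2, F13a1, Spn, Ly6c2 and Vcan) and 0 rose, against 2.9% and 2.5% of all tested genes. DESeq2 also called 8 lower and limma-voom 7, without Vcan, and neither called any higher. Vcan was called in 5 of 14 alternatives, and Spn and Ly6c2 in 9 of 15 each. The summed level of the monocyte markers was 70.9 to 87.5 CPM in foamy libraries, against 706 to 1015 CPM in non-foamy ones. Nr4a1, at a mean of 21.1 against 167 CPM, is counted both in this list and in the next. Immediate early and heat shock transcripts, known to respond to enzymatic digestion, were tested for 17 genes. Of these, 13 fell (Nr4a1, Hspa1a, Hspa1b, Egr1, Fos, Zfp36, Dnajb1, Dusp1, Ier3, Ier2, Jun, Atf3 and Fosb), against 2.9% of all tested genes. Among the 13, Atf3 and Fosb were called in 7 and Jun and Ier2 in 8 of 15 alternatives. Hsph1 went the other way, higher in all 3 foamy libraries without passing the edgeR test (log2 fold change 0.62, unadjusted p = 0.018, adjusted p = 0.15). The sum of the list was 2283 to 2731 CPM in foamy libraries, against 4996 to 7456 CPM in non-foamy ones. The 13 dendritic cell markers summed to 9.30 to 21.6 CPM in foamy libraries, against 56.6 to 267 CPM in non-foamy ones, where Cd209a gave most of it, and 1 of the 4 tested, Ccl22, fell by edgeR. DESeq2, which tested more genes, called 4 of them lower and 1 higher, and the edgeR fit with no filter 3 lower and 1 higher. Among defining dendritic cell genes, Zbtb46 had 0 to 2 counts in foamy and 31, 5 and 19 in the non-foamy libraries, and Flt3 94 counts in non-foamy replicate 1 against at most 4 in each other library. Clec9a went the other way, with 0, 22 and 33 counts in the foamy libraries and 0 in each non-foamy library. Batf3 overlapped between the groups (log2 fold change -0.02). The part of the dendritic cell markers was not tested either. B cell markers summed to 59.3 to 83.1 CPM in foamy libraries, against 20.3 to 41.5 CPM in non-foamy ones, mainly from Cd22, which rose. Ighm, the immunoglobulin mu heavy chain gene of B cells, was outside that list and fell with Cd86, from 625 CPM in non-foamy to 89.1 CPM in foamy libraries (log2 fold change -2.81, adjusted p = 3.8e-05 by edgeR); its part in the Cd86 result was not tested. Among T cell markers Cd4 rose, a call that held in 12 of 15 alternatives, and Trbc1 and Trbc2 were at 0 in every library. Cd5 went the other way, lower in all 3 foamy libraries without passing (log2 fold change -1.61, edgeR adjusted p = 0.098). Cd2 overlapped between the groups and did not pass. DESeq2 called 2 T cell markers lower and 1 higher, and limma-voom 0 lower and 1 higher. No tested endothelial (3) or smooth muscle (4) marker passed, at an unadjusted p of 0.05 or by DESeq2 or limma-voom either, and these lists summed to at most 30.7 CPM in any library.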

How the data were processed

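Bulk RNA-seq of 6 libraries was analysed. Per the labels' protocols, sorted cells were lysed, SMARTer Ultra Low chemistry gave cDNA, and libraries of 12 cycles were read as single 50-base reads; no molecular identifiers are named, so reads are not independent molecules and limits from 0 counts cover counting error only. Per the submitters' processing notes, STAR 2.0.4b, Subread, featureCounts 1.4.5 and GRCm38 were used; the sources used here do not give strandedness or the handling of multi-mapping reads. The deposited counts are whole, unnormalized numbers of reads for each gene. The deposited CPM are counts per 1e+06 counts in genes and the deposited RPKM that CPM per kilobase of the listed length, checked on every gene to 1e-06, a check that was their only use.

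Symbols came from a GENCODE name table (97.26% of IDs). Genes were tested with edgeR 4.0.16 in R 4.3.3 (filterByExpr, TMM, robust quasi-likelihood F-test, Benjamini-Hochberg over 11303 genes, threshold 0.05). Means, SDs and levels are TMM-normalized, with factors of 0.868 to 1.186. SE was taken as the absolute log2 change divided by the root of F. Ratios used counts plus 0.5 and scipy 1.17.1. The alternatives were RLE, upper-quartile and total-count scaling, DESeq2 1.42.0, limma-voom (limma 3.58.1), dropping the filter, a stricter one (10 counts in 3 libraries, 5 CPM on average), blocking on replicate number, a test against a 1.5-fold change, each library left out, and, for ratios, a pseudocount of 1 and no division by length. On simulated data for this comparison (10948 genes tested), recovery was 14% at 2-fold, 54% at 4-fold, 70% at 8-fold and 80% at 16-fold, and 3.5% of calls were false. Libraries of a group differed beyond sampling noise (chi-square over its degrees of freedom 50.7 to 143).

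The genes named are the 6 ligands, the called genes of each list with up to 2 more by mean level, the 3 genes most like each ligand, the neighbours of the PD-1 ligand genes, Fcgr1, Itgam and Apoe; other list genes were named after their values were seen. The 6 genes and the lists were chosen with earlier results of these data known.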

Additional observations from a re-analysis of the deposited data

How the results depend on the processing

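Cd86 and Icosl stayed below 0 and called under all 15 alternatives each, with log2 fold changes of -2.66 to -2.21 and -2.61 to -2.01. Cd80 stayed below 0 under its 14 alternatives (-2.94 to -1.67; -2.94 to -1.67 with a library left out) and was called by DESeq2 alone (-2.15). The sign of genes that were not called turned: Cd40 to 0.0025 without non-foamy replicate 3 (range without a library -0.43 to 0.0025), Cd274 to 0.014 without non-foamy replicate 2 (-0.75 to 0.014), and Pdcd1lg2 to -0.076 with total counts only and to -0.28 and -0.33 without non-foamy replicates 1 and 3 (-0.33 to 3.26). Without foamy replicate 1 and under the filter with a mean of 5 CPM, Pdcd1lg2 was not tested, nor was Cd80 under that filter. For the differences in log2 ratio, the range without a library was -0.53 to 0.85 for Cd86 to Cd80 (negative without foamy replicate 2, -0.53, or non-foamy replicate 1, -0.14), -2.36 to 0.85 for Cd274 to Pdcd1lg2 (positive without foamy replicate 1, 0.85, or non-foamy replicate 3, 0.21), and -0.35 to 0.46 for Cd40 to Cd274 (negative without foamy replicate 1, -0.35, or non-foamy replicate 2, -0.34); that of Cd86 to Cd274 stayed negative (-2.53 to -1.68). The cause of these turns was not tested.

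The count of called genes was 611 and became 1408 with DESeq2 (586 higher, 822 lower), 276 against a 1.5-fold change, and 271 to 579 without 1 library: 346, 316 and 271 without foamy replicates 1 to 3 and 366 without non-foamy replicate 2. With total counts only the split moved from 283 higher and 328 lower to 165 and 614, and the median of all tested genes from -0.04 to -0.31. In the lists, total counts only gave 2 lower regulators of PD-1 ligands in place of 0, and no filter gave 2 higher other ligands in place of 1 and 1 higher receptor, Cd28, in place of 0. With the replicate number as a block, 391 genes were called (159 higher, 232 lower); same-numbered libraries did not deviate together (correlations -0.07, -0.02 and -0.03), and Cd86 (-2.40) and Icosl (-2.41) stayed called, while Pvr (-1.81, edgeR adjusted p = 0.082), Adgre1 (adjusted p = 0.094), Itgam (0.082), Spn (0.062) and Vcan (0.10) did not pass, nor did Fosb, Jun, Ier2 and Atf3, and Cd200 did (1.94, adjusted p = 0.038). Depth limits Pdcd1lg2 and Cd80, which had as few as 0 and 6 counts in a library.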
